A study of Saccharomyces cerevisiae with 5 samples.

Results

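The comparison described here is that of yeast cells lacking SIW14 with wild-type cells when both strains were in hydrogen peroxide. It is 1 of the 5 two-colour arrays of the study, and its members are the genes that have a value on that array. Of 6253 genes on the array, counted as platform gene symbols with unnamed probes standing alone, 5810 had a value, of which 3994 have a gene symbol and 1816 are unnamed probes. The mutant, siw14Δ, and its wild type, BY4741, were log-phase cultures in synthetic complete medium, given 0.4 mM H2O2 for 20 min. Polyadenylated RNA of the mutant carried the Cy5 dye and that of the wild type the Cy3 dye. The other 4 arrays set siw14Δ over BY4741 without stress, siw14Δ over BY4741 in 0.4 M KCl, and a wild type named ACY044 in peroxide or in KCl over its own unstressed cells. No array has a replicate or a dye swap, so no test was possible, no error can be given for a gene, and a dye effect and a strain effect cannot be told apart. Whether the deletion strain is 1 clone is not stated.

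Every value below is a deposited log ratio read as log2, mutant over wild type in peroxide unless another array is named. The base is not named, and natural logarithms could not be told from base 2, so each fold given here holds only if the base is 2. On that reading a value of 1 is a 2-fold higher level in the mutant and a value of -1 a 2-fold lower level, and at least 2-fold is used throughout as a rule of size and not as a test. For the wild-type RNA of this array the channel's source name mentions only the medium, whereas its treatment entry and the sample title give peroxide. The treatment entry was followed, but the labels do not settle whether the wild-type cells had received peroxide, and the cases cannot be told apart. If they had not, the ratios would hold the peroxide response as well as the strain difference. The 30 named genes that were highest in wild-type cells in peroxide over unstressed cells had a median of 3.54 there, and the 26 of them with a value here had a median of 2.70, with 22 higher by 2-fold or more in the mutant and 1 lower. The 30 lowest named genes of that array had a median of -2.74 there and -1.19 here, with 19 lower by 2-fold or more in the mutant and 1 higher.

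SIW14 encodes a phosphatase that removes a phosphate from inositol pyrophosphates, small signalling molecules made by the kinases Kcs1 and Vip1. In budding yeast peroxide oxidises the transcription factor Yap1, which then stays in the nucleus and activates genes for thioredoxin, glutathione and detoxifying enzymes. A separate pair of activators, Msn2 and Msn4, turns on a general stress programme that protein kinase A restrains, while genes for making ribosomes go down under most stresses.

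SIW14 itself lay at -1.66, a 3.16-fold lower level in the mutant, which goes with the label of the deletion strain. It lay at -2.07 in the unstressed mutant and -2.06 in the mutant in KCl, against 0.28 in wild type in peroxide and -0.22 in wild type in KCl. The 3 nearest named genes on each side of SIW14 in RefSeq order lay between -1.26, for the histone gene HHF2, and 2.03, for the isocitrate dehydrogenase gene IDH1. The nearest named genes were NCE103, a carbonic anhydrase gene, at 0.58 and, on the other side, the histone gene HHT2 at -0.27. Unnamed probes have no place in this order, so these need not be the immediate neighbours of SIW14. Medians of the 16 nuclear chromosomes ran from -0.22 for XIV to 0.15 for III, so no nuclear chromosome as a whole stood far from 0.

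Features that should hold little yeast RNA of either strain did not centre on 0. The 7 E1A control features, which are not yeast sequences, lay between -2.01 and 2.28 with a median of 1.17, and 6 were above 0. Medians on the other arrays rest on other sets of these features. They were 2.08 over 3 features in the unstressed mutant and 0.98 over 9 in the mutant in KCl. In wild type they were -0.37 over 10 in peroxide and 0.15 over 6 in KCl. The 3 with a value in the unstressed mutant lay at 2.35, 2.08 and 1.68 there. The same 3 lay at 2.28, 1.75 and 1.17 here and at 2.54, 2.32 and 1.94 in the mutant in KCl. BY4741 is commonly used as a MATa strain without LEU2, URA3, HIS3 and MET17, yet LEU2 lay at 2.24, URA3 at 1.63 and the MATalpha pheromone gene MF(ALPHA)2 at 2.81. The other 3 genes of the MATalpha-specific list were under 2-fold, MF(ALPHA)1 at 0.16, STE3 at 0.53 and SAG1 at 0.56. The mating-type genes MATALPHA2, MATALPHA1 and HMLALPHA1, outside that list, lay at 1.31, 1.10 and 1.17. Of 7 MATa-specific genes, 2 were higher by 2-fold or more, MFA1 at 1.72 and AGA2 at 1.52, and 1 lower, BAR1 at -1.31. HIS3 and MET17 had no value on any of the 3 mutant arrays but had one on both ACY044 arrays. The part that weak or absent signal plays in the ratios of other genes was not tested, since no intensities were used here.

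Across all genes with a value, 746 were higher by 2-fold or more in the mutant, which is 12.8%, and 483 lower by 2-fold or more, which is 8.31%. The array median was -0.02, 5% of genes lay above 1.78 and 5% below -1.20. The high end reached further than the low end: 231 genes stood 4-fold or more above the wild type and 52 as far below it, and at 8-fold the counts were 79 and 11. Among named genes 435 were higher by 2-fold or more and 321 lower. Each list count for this array below is to be read beside the 12.8% and 8.31%, and several lie near them.

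**Figure D1:**
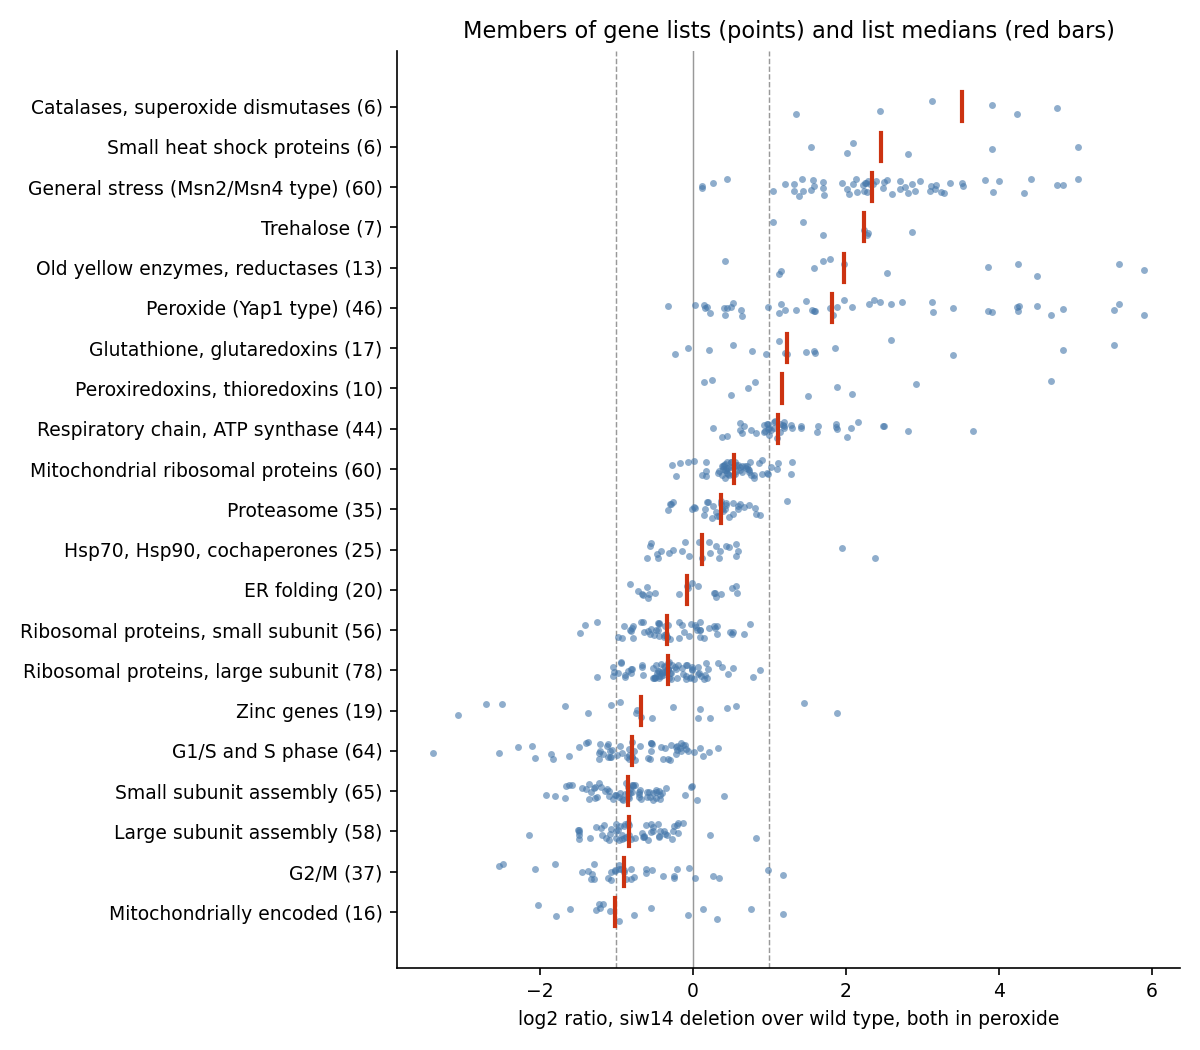
Log2 ratio of siw14Δ over wild type, both in peroxide (horizontal axis), for the members of 21 gene lists (rows, with the number of members that have a value); points are genes, red bars list medians, dashed lines 2-fold. Catalase and superoxide dismutase genes lie farthest to the right with a median of 3.52. Mitochondrially encoded genes and intron reading frames lie farthest to the left with a median of -1.02, and proteasome and Hsp70/Hsp90 genes sit near 0.

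Peroxide genes of the Yap1 type were much higher in the mutant than in the wild type. Of 46 with a value, 32 were higher by 2-fold or more and 0 lower, 45 lay above 0, and the median was 1.81. The same genes had a median of 0.08 in the unstressed mutant and 0.39 in the mutant in KCl, against 0.96 in wild type in peroxide over unstressed cells. In the unstressed mutant 6 of them were higher by 2-fold or more and 1 lower, beside 6.17% higher and 1.57% lower of all genes on that array. In wild type in peroxide 22 were higher by 2-fold or more and 1 lower, beside 10.7% higher and 11.3% lower of all genes on that array. The 45 that do not stand in the general stress list had a median of 1.79, close to that of the whole list. Earlier results of these data were known when the list was written, so its direction is no independent evidence.

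The 3 highest named genes of the array were OYE3, FRM2 and GTT2, followed by the stress gene HSP12. OYE3, an NADPH-dependent oxidoreductase of the old yellow enzyme family, lay at 5.90, a 59.7-fold higher level in the mutant, but at -0.96 in the unstressed mutant and 2.27 in wild type in peroxide. FRM2, a gene of the nitroreductase family, lay at 5.57 and had no value in the unstressed mutant. GTT2, a glutathione transferase gene, lay at 5.51, a 45.4-fold higher level, against 0.05 in the unstressed mutant. GRE2, a methylglyoxal reductase gene, lay at 4.49, and the aryl-alcohol dehydrogenase genes AAD4 and AAD6 at 4.24 and 3.86, although members of that family share much of their sequence and their probes may not tell them apart. Of 13 old yellow enzymes, aryl-alcohol dehydrogenases and related reductases with a value, 12 were higher by 2-fold or more, and the remaining one, AAD14, lay at 0.42.

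Enzymes that remove superoxide and peroxide were all higher. The list of catalases, superoxide dismutases and their helpers had 6 of 6 higher by 2-fold or more, with a median of 3.52. The cytosolic catalase gene CTT1 lay at 4.76 and the peroxisomal catalase gene CTA1 at 4.23. In the unstressed mutant the catalase genes stood apart from each other, with CTT1 at 3.11 and CTA1 at 0.39, and in wild type in peroxide CTT1 lay at 2.28 and CTA1 at 0.38. The mitochondrial cytochrome c peroxidase gene CCP1 lay at 3.91 here and at -1.25 in wild type in peroxide. The manganese superoxide dismutase gene SOD2 lay at 3.13, the copper-zinc enzyme SOD1 at 2.44 and its copper chaperone CCS1 at 1.35.

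Among thiol systems the values were uneven. Of 10 peroxiredoxin, glutathione peroxidase and thioredoxin genes with a value, 5 were higher by 2-fold or more. TSA2, a minor cytosolic peroxiredoxin gene, lay at 4.69, while TSA1, which encodes the major one, lay at 1.88. The glutathione peroxidase gene GPX1 lay at 2.92, the peroxiredoxin gene AHP1 at 2.08 and the mitochondrial thioredoxin gene TRX3 at 1.5. HYR1, the peroxide sensor that passes oxidation on to Yap1, lay at 0.73, the cytosolic thioredoxin gene TRX1 at 0.25 and the methionine sulphoxide reductase gene MXR1 at 0.15. TRX2, TRR1 and GPX2, which encode a thioredoxin, the thioredoxin reductase and a glutathione peroxidase, had no value on this array. In wild type in peroxide they lay at 3.19, 1.57 and 4.22.

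Of 17 glutathione genes, 11 were higher by 2-fold or more and 0 lower, with a median of 1.23. GSH1, which encodes the first enzyme of glutathione synthesis, lay at 2.59, whereas GSH2, the second, lay at 0.53. The glutathione reductase gene GLR1 lay at 1.2 and the vacuolar glutathione conjugate pump gene YCF1 at 1.48. ECM4, an omega-class glutathione transferase gene, lay at 4.83, the glutaredoxin gene GRX2 at 3.41 and GRX1 at 1.59. GRX3 and GRX4, the glutaredoxins that act in iron sensing, lay at -0.06 and -0.23.

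Drug exporters had no common direction. Of 27 multidrug transporters and their regulators, 7 were higher by 2-fold or more and 3 lower, with a median of 0.17. FLR1 and ATR1, exporters of the major facilitator family, lay at 4.26 and 3.14, against -0.35 and -0.16 in the unstressed mutant. PDR5, the main ABC drug pump gene, lay at -1.72, and it also lay at -1.65 in the unstressed mutant and -1.57 in the mutant in KCl. Its regulator PDR3 lay at -1.06.

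Of the transcription factor genes for these programmes, YAP1 lay at 1.56, close to its 1.54 in wild type in peroxide. YAP7 lay at 1.67, against -0.36 in wild type in peroxide, and CIN5, also of the Yap family, at 2.07. SKN7, whose product works with Yap1 at many antioxidant genes, lay at -0.83. XBP1, a repressor of cell cycle genes in stressed cells, was the highest at 3.54, and the hypoxic repressor ROX1 lay at 1.76. Of the 23 factors with a value, 7 were higher by 2-fold or more and 0 lower.

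The supply of NADPH was represented by stress forms of its enzymes. Of 18 pentose phosphate and NADPH genes, 5 were higher by 2-fold or more and 1 lower, with a median of 0.11. SOL4, GND2 and TKL2, for a lactonase, a 6-phosphogluconate dehydrogenase and a transketolase, lay at 4.43, 3.25 and 3.12. They were also high in the unstressed mutant, at 4.19, 1.68 and 1.77. The isocitrate dehydrogenase gene IDP2 lay at 1.87 and SOL1 at 1.01, against -0.20 and -0.11 in the unstressed mutant. ZWF1, the first enzyme of the pathway, lay at 0.98, just under 2-fold, and RKI1, the ribose isomerase, at -1.01.

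**Figure D2:**
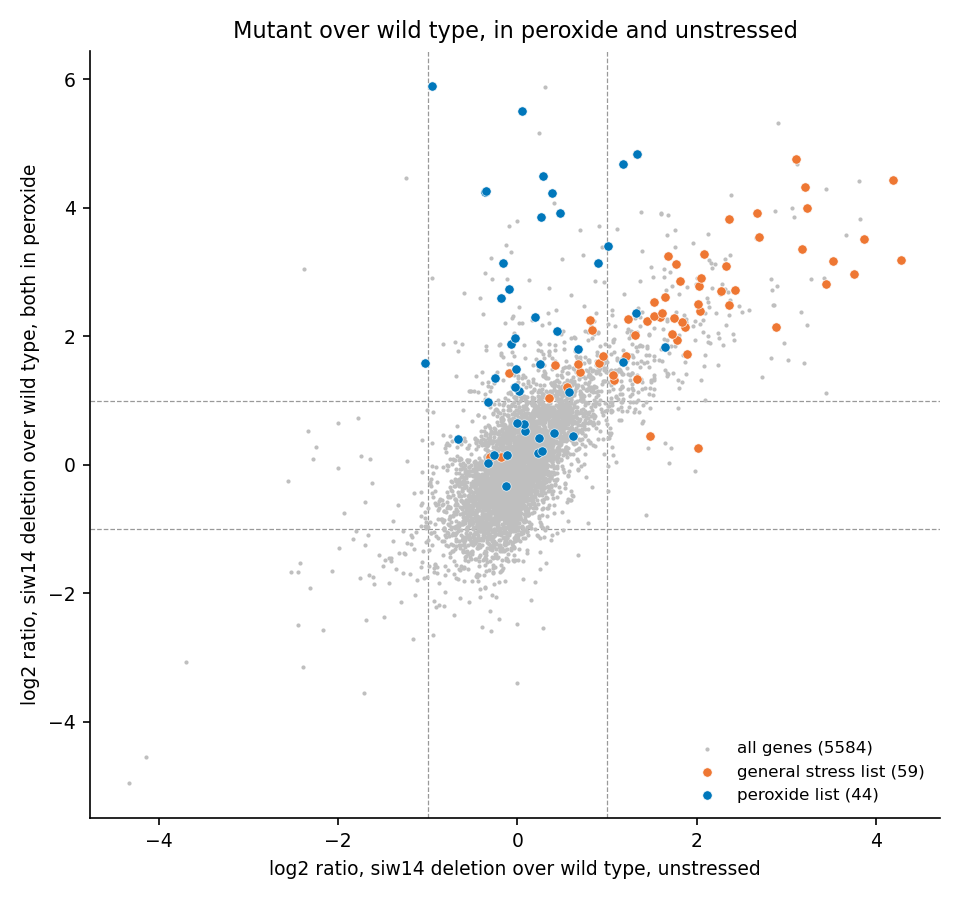
Log2 ratio of siw14Δ over wild type in peroxide (vertical axis) against the same ratio without stress (horizontal axis); grey points are the 5584 genes with both values, orange the general stress list, blue the peroxide list, dashed lines 2-fold. General stress genes are high on both axes, whereas many peroxide genes, OYE3 and GTT2 among them, are high in peroxide and near or below 0 without stress.

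Genes of the general stress programme of Msn2 and Msn4 were also far above the wild type, and most of them were so without stress as well. Of 60 with a value, 56 were higher by 2-fold or more and 0 lower, and all 60 lay above 0, with a median of 2.34. Over the same genes the median was 1.77 in the unstressed mutant and 1.85 in the mutant in KCl, against 1.86 in wild type in peroxide. HSP12, a membrane-binding stress protein gene, lay at 5.03, a 32.7-fold higher level, and had no value on the other mutant arrays. The members under 2-fold were SSA3 at 0.11, the vacuolar protease gene PRB1 at 0.12, the glycogen synthase gene GSY1 at 0.27 and MSN4 at 0.45. GSY1 and MSN4 lay at 2.01 and 1.48 in the unstressed mutant, so both were nearer to the wild type in peroxide. MSN2 lay at 0.30 here and 0.09 in the unstressed mutant.

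Genes that regulate Msn2 and Msn4 showed small ratios with a few exceptions. Of 25 with a value, MSN2 and MSN4 included, 4 were higher by 2-fold or more and 1 lower. Over all genes of this array 12.8% were higher and 8.31% lower. TPK2, a catalytic subunit gene of protein kinase A, lay at 2.19, while TPK3, another one, lay at -0.81. The regulatory subunit gene BCY1 lay at 1.2, and YAK1, a kinase that protein kinase A opposes, at 1.21. SCH9, which encodes a growth-promoting kinase, was the lowest at -1.61. Among the 9 inositol pyrophosphate genes, 8 other than SIW14 lay between -0.75 for KCS1 and 0.26 for the inositol monophosphatase gene INM1. VIP1 lay at -0.52 and DDP1, a phosphatase that also acts on inositol pyrophosphates, at 0.16.

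Many genes of storage carbohydrates were higher. All 7 trehalose genes were higher by 2-fold or more, with a median of 2.24, from the synthase regulator TPS3 at 1.05 to TSL1, also a subunit of the synthase complex, at 2.86. The trehalases NTH1, NTH2 and ATH1, which break trehalose down, lay at 2.24, 1.44 and 1.70, beside TPS1 and TPS2 for its synthesis at 2.29 and 2.28. Of 19 glycogen genes, 14 were higher by 2-fold or more and 0 lower. The glycogen phosphorylase gene GPH1 lay at 3.18 and the branching enzyme gene GLC3 at 2.77, so genes of breakdown and of synthesis were both high. Both lists were high in the unstressed mutant too, with medians of 1.45 for trehalose and 1.17 for glycogen genes. GPH1 and GLC3 lay at 4.28 and 2.03 there.

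Chaperone genes split by class. All 6 small heat shock protein and disaggregase genes were higher by 2-fold or more, with a median of 2.46, yet in wild type in peroxide the median of the same genes was 3.47. The plasma membrane gene HSP30 lay at 3.91, HSP26 at 2.82 and HSP42 at 2.01. The disaggregase gene HSP104 lay at 2.10 and its mitochondrial relative HSP78 at 1.55. Of 25 Hsp70, Hsp90 and cochaperone genes, 2 were higher by 2-fold or more, SSE2 at 2.38 and SSA4 at 1.94, and the median was 0.11. In wild type in peroxide 9 of these 25 were higher by 2-fold or more, with a median of 0.69. Of 20 endoplasmic reticulum folding genes, 0 were at 2-fold or more in either direction, and they ran from IRE1 at -0.81 to HAC1 at 0.58.

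The proteasome showed a similar contrast. Of 35 genes in that list, 1 was higher by 2-fold or more, and it was RPN4 at 1.23, which encodes the activator of proteasome genes. The median was 0.37, against 0.02 in the unstressed mutant and 0.998 in wild type in peroxide, where 17 of the 35 were higher by 2-fold or more. RPN4 lay at 0.11 there. Among 19 ubiquitin genes, the stress-induced polyubiquitin gene UBI4 lay at 2.36 and UBC5 at 1.5, and 3 in all were higher by 2-fold or more.

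Genes of respiration were higher in the mutant in peroxide. All 44 nuclear genes of the respiratory chain and ATP synthase lay above 0, 28 were higher by 2-fold or more, and the median was 1.12, against 1.16 in the unstressed mutant and -0.16 in wild type in peroxide. The 3 NADH dehydrogenase genes were all higher by 2-fold or more, as were 3 of 4 genes of succinate dehydrogenase, 6 of 9 of the cytochrome bc1 complex, 5 of 9 of cytochrome c oxidase and 8 of 14 of ATP synthase. CYC1, which encodes the main form of cytochrome c, was the highest at 3.66, against 1.11 in the unstressed mutant and -0.03 in wild type in peroxide. The lactate dehydrogenase gene CYB2 lay at 2.82, CYC7, the cytochrome c of low-oxygen growth, at 2.49, and DLD2, the lowest of the list, at 0.26. HAP4, the activator subunit of the complex that turns on respiratory genes, lay at 1.32, against -1.11 in wild type in peroxide. It lay at 1.52 in the unstressed mutant and 2.55 in the mutant in KCl.

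**Figure D3:**
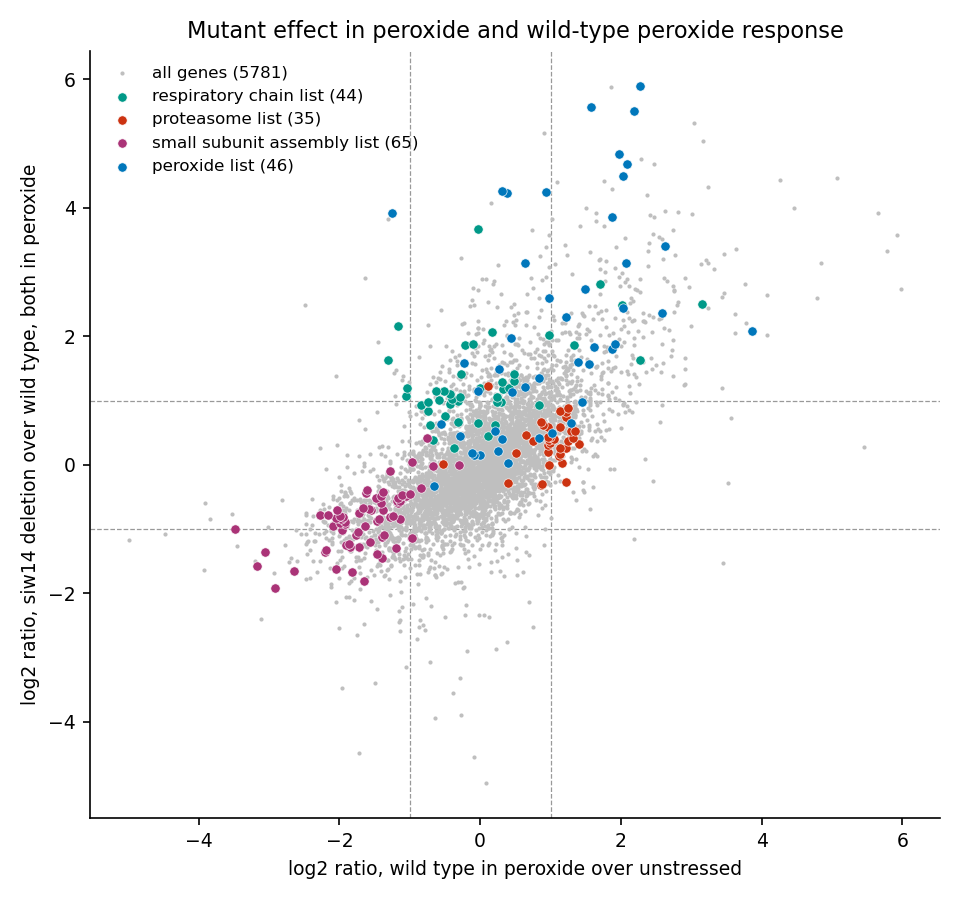
Log2 ratio of siw14Δ over wild type in peroxide (vertical axis) against that of wild type in peroxide over unstressed wild type of another strain name (horizontal axis); grey points are the 5781 genes with both values, coloured points 4 gene lists, dashed lines 2-fold. Proteasome genes lie to the right near 0 on the vertical axis, respiratory genes lie above 0 on the vertical axis on both sides of 0 on the horizontal axis, and small subunit assembly genes lie in the lower left.

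Of 23 TCA cycle genes, 9 were higher by 2-fold or more and 0 lower. IDH2 and IDH1, the subunits of isocitrate dehydrogenase, lay at 2.85 and 2.03, against 0.97 and 0.49 in the unstressed mutant, and the citrate synthase gene CIT1 lay at 2.07. The malic enzyme gene MAE1 was the lowest at -0.87 and KGD1 lay at 0.16. Many transcripts encoded in the mitochondrion lay the other way: of 16 genes and intron reading frames, 8 were lower by 2-fold or more and 1 higher, with a median of -1.02. Besides COX1 at -1.23 and VAR1 at -1.21, the 8 were intron reading frames, BI2, BI4, AI3, AI5_BETA, AI1 and AI2, between -2.02 and -1.08. The other intron frames, AI4, AI5_ALPHA and BI3, lay at -0.77, -0.07 and 0.31. The other genes were mixed, with COX2 at -0.96, COX3 at -0.55, COB at 0.14, OLI1 at 0.76 and ATP6 at 1.18. The mean of these 16 was -0.71. RNA was selected by its poly(A) tail, which most mitochondrial transcripts of yeast lack, and the part this plays in these ratios was not tested. Of 60 mitochondrial ribosomal protein genes, which are nuclear, 56 lay above 0 with a median of 0.54 and 5 were higher by 2-fold or more.

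Sugar transport and glycolysis were mixed. The high-affinity hexose transporter genes HXT4, HXT6 and HXT7 had ratios of 2.49, 2.90 and 3.83, against -2.48, -1.64 and -1.31 in wild type in peroxide; HXT6 and HXT7 are nearly identical, so their probes may measure both. HXT11 lay at -2.60, HXT2 at -1.06 and the galactose permease gene GAL2 at -0.98. The median of the 20 hexose genes was -0.19 and their mean 0.22, so the sign depends on the measure. Of 26 glycolysis and fermentation genes, 14 were higher by 2-fold or more and 1 lower, with a median of 1.0. The 4 highest were TDH1 at 4.0, HXK1 at 3.16, GPM2 at 3.14 and ADH5 at 2.35. They encode a glyceraldehyde-3-phosphate dehydrogenase, a hexokinase, a phosphoglycerate mutase relative and an alcohol dehydrogenase. Without stress these 4 lay at 3.06, 3.52, 2.16 and -0.39 in the mutant. ADH4, an alcohol dehydrogenase gene controlled by zinc, lay at -2.49. The aldehyde dehydrogenase gene ALD3 lay at 3.92 and the glutamate decarboxylase gene GAD1 at 3.36, against 2.67 and 3.17 in the unstressed mutant. Of 18 gluconeogenesis and glyoxylate cycle genes, 6 were higher by 2-fold or more, led by ICL1 at 1.84 and FBP1 at 1.82, and 0 were lower.

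Genes for building ribosomes were lower in the mutant. Of 65 assembly factors of the small subunit, 24 were lower by 2-fold or more, 63 lay below 0 and the median was -0.84. Of 58 for the large subunit, 17 were lower by 2-fold or more, 56 lay below 0 and the median was -0.83. In the unstressed mutant 0 genes of either list were lower by 2-fold or more, with medians of -0.30 and -0.19. Only 1.57% of all genes were lower by 2-fold or more on that array. For wild type in peroxide 58 and 48 were lower by 2-fold or more, beside 11.3% of all genes, with medians of -1.60 and -1.68. In the mutant in KCl 57 and 49 were, with medians of -2.15 and -1.81, below those in peroxide. Over all 5703 genes with a value here and in the mutant in KCl, 10.7% were lower by 2-fold or more in KCl. The nucleolar gene NSR1 lay at -1.91, UTP22 at -1.80 and UTP9 at -1.67, which belong to the small subunit list. The helicase gene DBP7 lay at -2.13 and the GTPase genes NOG2 and NOG1 each at -1.49. SAS10 at 0.41 and SPB1 at 0.83 were the highest of the 2 lists.

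RNA polymerase subunits followed the same direction, with RPO31 and RPC82 of polymerase III at -1.82 and -1.61 and RPA34 and RPA135 of polymerase I at -1.28 and -1.16. Of that list's 38 genes, 6 were lower by 2-fold or more and 1 higher. MAF1, the repressor of polymerase III, was the one that was higher, at 1.35. Cytosolic ribosomal proteins lay closer to 0, with medians of -0.34 for 56 small subunit genes and -0.33 for 78 large subunit genes, of which 3 and 4 were lower by 2-fold or more and 0 higher. Translation factor genes had a median of -0.44, from the scaffold gene TIF4631 at -1.72 to HEF3, a second form of elongation factor 3, at 1.22. The 18 aminoacyl-tRNA synthetase genes ran from -1.01 to 0.14.

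Many cell cycle genes were lower in the mutant in peroxide, and the medians of the G1/S and G2/M lists were near 0 in the unstressed mutant. The cultures were measured in bulk, so fewer cells in a phase and less RNA per cell cannot be told apart. Of 64 G1/S and S phase genes, 23 were lower by 2-fold or more and 0 higher, with a median of -0.79, against -0.06 in the unstressed mutant and -0.31 in wild type in peroxide. In the mutant in KCl 33 of 63 were lower by 2-fold or more, with a median of -1.04. The share over all genes with a value here and in the mutant in KCl was 10.7% lower in KCl. The cyclin gene PCL1 was the lowest at -3.40, a 10.5-fold lower level, against -0.01 in the unstressed mutant and -1.49 in wild type in peroxide. Of 7 G1 and S phase cyclin genes, 5 were lower by 2-fold or more, CLN1 at -2.10, CLN2 at -1.85, CLB6 at -1.62 and CLB5 at -1.09 besides PCL1. CLN3, which starts the G1 programme, lay at -0.83 and PCL2 at -0.16. YOX1 and YHP1, repressors of M/G1 genes, lay at -2.53 and -1.83, and SWI4, the DNA-binding part of the activator SBF, at -1.21.

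Origin licensing genes were among the lower ones, with CDC6 at -2.28 and MCM7 at -2.06. All 9 genes of origin licensing and firing lay below 0 and 4 were lower by 2-fold or more, with a median of -0.93. Of 16 replication fork genes 4 were lower by 2-fold or more, with a median of -0.56, and the single-strand binding genes RFA1 and RFA2 were above 0 at 0.33 and 0.21. Of 37 G2/M genes, 15 were lower by 2-fold or more and 1 higher, with a median of -0.90, against -0.02 in the unstressed mutant, where 3 were higher by 2-fold or more, and -0.91 in wild type in peroxide. In the mutant in KCl 5 of the 37 were lower by 2-fold or more and 3 higher, with a median of -0.37. Beside these counts stand 10.7% lower and 11.2% higher in KCl among all genes with a value on both arrays. Over all genes of the unstressed array 6.17% were higher by 2-fold or more. The bud neck kinase gene KCC4 lay at -2.53, the polo kinase gene CDC5 at -2.47 and the haspin-like kinase gene ALK1 at -2.06. Of 25 M/G1 genes, 7 were lower by 2-fold or more and 3 higher, with the pheromone arrest gene FAR1 at -1.77 and the cell wall gene PIR3 at 2.72. The core histone gene HHF2 lay at -1.26, and the other 10 histone genes lay between -0.85 and 0.48.

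Genes that respond to DNA damage were not uniform. The ribonucleotide reductase gene RNR1, its large subunit, lay at -1.35, against 0.65 in wild type in peroxide. RNR2, a small subunit gene, lay at 1.21, RNR3, the damage-induced large subunit, at 1.02 and RNR4 at 0.54. The photolyase gene PHR1 lay at 1.97 and the DNA glycosylase gene MAG1 at 1.26, against 2.18 and 2.91 in wild type in peroxide. Of 20 genes in the list, 6 were higher by 2-fold or more and 1 lower, against 11 and 0 in wild type in peroxide.

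Zinc genes held some of the lowest ratios of the array. ZPS1, a zinc-regulated cell surface gene, lay at -3.07, an 8.40-fold lower level, and ZAP1, which encodes the zinc-sensing activator, at -2.70. The zinc transporter genes ZRT1, ZRT3 and ZRT2 lay at -1.67, -1.37 and -0.74. Of 19 zinc genes, 6 were lower by 2-fold or more and 2 higher, with a median of -0.67. ZPS1 and ADH4 were as low in the unstressed mutant, at -3.69 and -2.45, whereas ZAP1 lay at -1.16 there and -0.90 in wild type in peroxide. The 2 that were higher were TSA1 and the cell wall gene PST1, at 1.46, which also stand for other processes.

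Iron genes lay on both sides of the wild type. Of 34, 9 were higher by 2-fold or more and 5 lower, with a median of 0.24, against -0.56 in the unstressed mutant and 0.93 in wild type in peroxide. Among 7 genes of siderophore capture and uptake, 2 were lower by 2-fold or more, FIT3 at -1.53 and ENB1 at -1.16, and 0 were higher. The median of the 7 was -0.17. In the unstressed mutant 6 of the 7 were already lower by 2-fold or more, with a median of -1.83, so as a group they lay nearer to the wild type here. Of all genes on the unstressed array, 1.57% were lower by 2-fold or more. In wild type in peroxide 6 of these 7 were higher by 2-fold or more, with FIT3 at 3.45 and ENB1 at 2.19. The haem oxygenase gene HMX1 lay at 2.67, the mitochondrial iron carrier gene MRS4 at 1.88, and the iron-sulphur scaffold genes ISU2 and ISU1 at 2.30 and 1.92. The ferric reductase genes parted widely, with FRE1 at 2.90 and FRE4 at -2.57, and the high-affinity permease gene FTR1 lay at -1.05. AFT2, which encodes an iron-sensing activator, lay at 1.71. Of 11 copper genes, 4 were higher by 2-fold or more, SOD1, CCS1, the copper transporter gene CTR1 at 1.27 and the metallothionein gene CUP1-2 at 1.09, which cannot be told from CUP1-1 at 0.996.

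Phosphate and ion transport genes had no common direction. PHO84, PHO89 and PHO90, which encode phosphate transporters, lay at -2.42, -1.25 and -1.20, while the PHO-regulated genes PHM7, PHM8 and PHM6 lay at 3.82, 2.77 and 1.14, and the 29 genes of the phosphate list had a median of -0.30 and a mean of 0.02. The sodium pump genes ENA2 and ENA1 lay at -1.37 and -1.14, although they share nearly all of their sequence. The proton pump gene PMA1 lay at 1.14 and its close relative PMA2 at 1.08. The 25 genes of the HOG osmosensing pathway, the kinase cascade for osmotic stress, ran from MSB2 at -1.49 to SSK1 at 0.56, with HOG1 at -0.09.

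Biosynthesis lists had medians near 0 with single genes far from it. ILV5, of branched-chain amino acid synthesis, lay at -2.59, against -0.29 in the unstressed mutant and -1.14 in wild type in peroxide. LYS20, a homocitrate synthase gene, lay at 2.73 while the other 9 lysine genes lay between -0.78 and 0.87. CAR2 and CAR1, for arginine breakdown, lay at -2.13 and -1.0, against 0.69 and 0.93 in wild type in peroxide, and ARG1, for arginine synthesis, at 1.86. Of the 36 sulphate and methionine genes, 4 were higher by 2-fold or more and 0 lower, and the low-affinity methionine permease gene MUP3 stood out at 3.22. HIS4 lay at -1.25. Of 26 amino acid permeases and their sensors, 2 were higher by 2-fold or more, MUP3 and AGP2 at 1.51, and 4 were lower, led by DIP5 for acidic amino acids at -2.20 and TAT1 at -1.59.

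Among lipid genes, 23 of 27 ergosterol genes lay below 0 and 4 were lower by 2-fold or more, with HMG1, the reductase of the rate-limiting step, at -1.32 and ERG1 at -1.19. The sphingolipid genes AUR1, for the complex sphingolipid synthase, and LCB1, for the first enzyme of the pathway, lay at -1.69 and -1.09, whereas the ceramidase genes YPC1 and YDC1 lay at 2.66 and 1.57. GPT2, an acyltransferase gene at the start of phospholipid synthesis, lay at 2.41, and the inositol permease gene ITR1 at -1.33. In nucleotide synthesis IMD2, an IMP dehydrogenase gene, lay at 2.89 and was almost as high in the unstressed mutant, at 2.83, against 0.08 in wild type in peroxide. The purine salvage gene HPT1 lay at -1.61 and the 30 purine genes, HPT1 and IMD2 included, had a median of -0.31.

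Some related genes that encode forms of the same protein lay far apart on this array. In 27 pairs that were chosen after their values were seen, so that their counts show only what was chosen, the first-named gene lay above its partner in 24, by 2-fold or more in 21. HXK1 lay at 3.16 and HXK2, the hexokinase of growth on glucose, at 0.02. PGM2 lay at 2.71 and PGM1 at -0.28, and GPP2 at 2.39 and GPP1 at -0.07. SSA2, a constitutive Hsp70 gene, lay at -0.60, below its stress-induced relative SSA4. The CTP synthase genes were on opposite sides of 2-fold, with URA8 at 1.28 and URA7 at -1.64. In 2 pairs the order was the other way by 2-fold or more, ANB1 at -0.56 beside HYP2 at 0.72, and CYC7 beside CYC1. Duplicate ribosomal protein genes were looked at separately. Among 55 pairs the median distance between copies was 0.30, 39 lay within 0.5 of each other, and 5 were 2-fold or more apart. The widest of these was RPS27A at -1.47 beside RPS27B at 0.52.

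**Figure D4:**
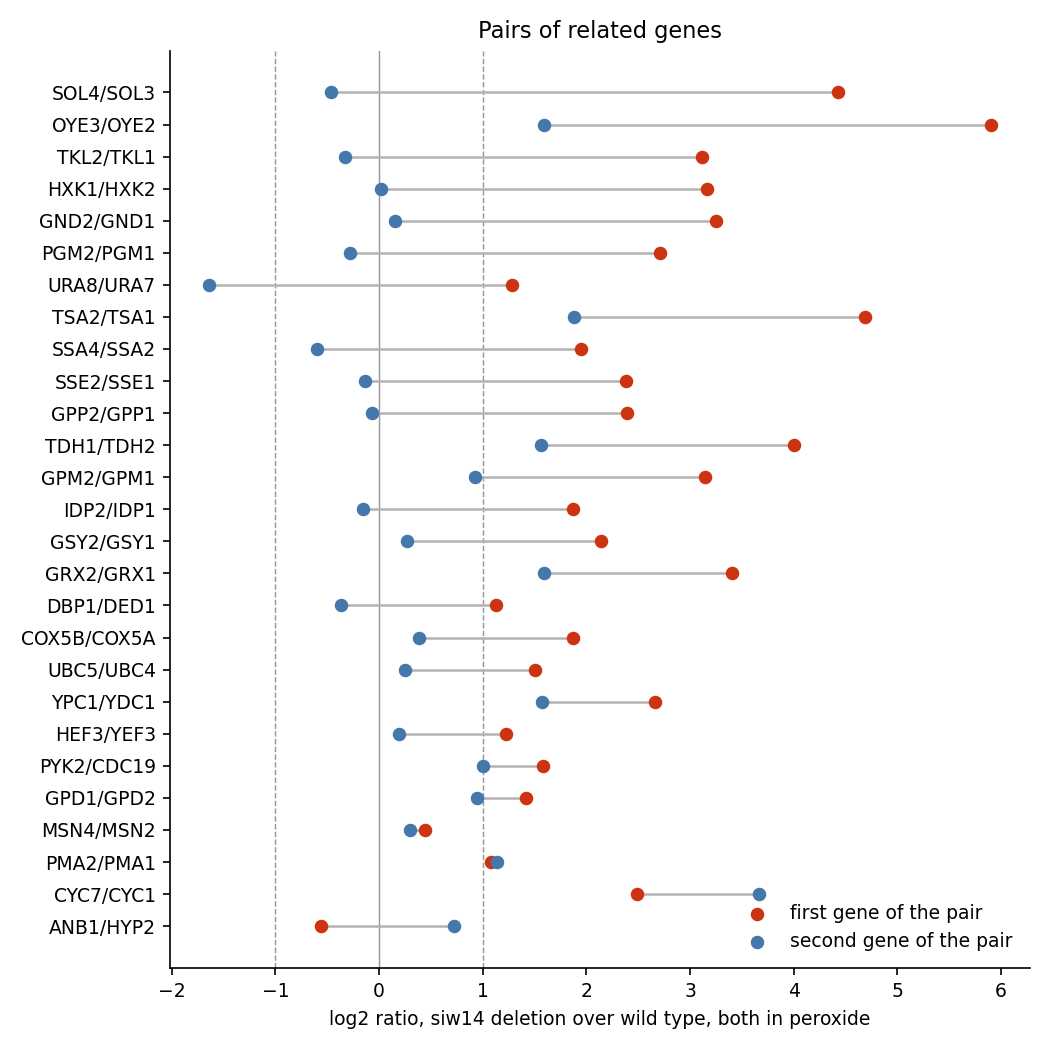
Log2 ratio of siw14Δ over wild type, both in peroxide (horizontal axis), for 27 pairs of related genes (rows, ordered by the distance between them); red points are the first-named gene, blue the second, dashed lines 2-fold. The widest pair is SOL4 at 4.43 beside SOL3 at -0.46, and in the lowest rows CYC7 and ANB1 lie below their partners.

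Among named genes, the 10 largest differences from the unstressed mutant in each direction ran from 3.50 to 6.85 on the high side and from -3.39 to -2.03 on the low side. The ratio of OYE3 was 6.85 higher in peroxide than without stress, that of GTT2 5.46, and those of FLR1 and AAD4 4.61 each. FRE1, which lay at -0.95 without stress, was 3.86 higher, CTA1 3.85 and MUP3 3.51. On the low side the difference, peroxide minus no stress, was -3.39 for PCL1, -2.82 for YOX1, -2.47 for CDC5 and -2.30 for ILV5. The mitotic cyclin gene CLB1 lay at -0.77 here and 1.43 in the unstressed mutant, and RPS9A, a ribosomal protein gene, at -1.41 here and 0.67 there.

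Of 3861 named genes with values on all 3 mutant arrays, 396 were higher by 2-fold or more here and 308 lower by 2-fold or more. Of the 396, 139 were higher by 2-fold or more on all 3 arrays, and 140 were so here while under 2-fold on the other mutant arrays. Of the 308, 13 were lower on all 3 and 130 here alone. The numbers called on the other arrays limit these counts. Of named genes with a value here, 204 of 3909 were higher by 2-fold or more in the unstressed mutant and 44 lower. In the mutant in KCl 343 of 3931 were higher and 456 lower. The 13 include SIW14, ZPS1, ZAP1, ADH4, FRE4, FIT3, FTR1, PDR5, HIS4 and CAR2. Among those at least 4-fold higher here and under 2-fold on the other mutant arrays were 20 genes, with GTT2, GRE2, FLR1, AAD4, AAD6, ATR1, LYS20, HMX1 and GSH1 in that set. ARR3 and ARR2, for arsenite export and arsenate reduction, also belonged to it, at 2.75 and 2.25. No difference between arrays was tested.

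Wild type in peroxide gives the genes that respond to the stress itself, in a strain named differently by the labels. Of 741 genes higher by 2-fold or more in the mutant here that have a value on both arrays, 345, or 46.6%, were also higher by 2-fold or more in wild type in peroxide, which is 56.5% of the 611 such genes there. Of 474 lower by 2-fold or more here, 256, or 54.0%, were lower by 2-fold or more there, 38.6% of the 664 there. Over all 5781 genes with both values, 10.6% were higher and 11.5% lower by 2-fold or more in wild type in peroxide. Both comparisons hold wild-type cells in peroxide by their labels, though not the same strain name, so these shares are given as description. In all, 17 named genes lay at 2-fold or more in opposite directions. The 15 that were higher in the mutant here and lower in wild type in peroxide include SDH2 at 1.38 beside -2.05, NDE1 at 2.16 beside -1.17, RIP1 at 1.63 beside -1.31, CCP1, HAP4 and the hexose transporter genes HXT4, HXT6 and HXT7. The 2 that went the other way were FIT3 and ENB1, which lay at -2.43 and -1.83 in the unstressed mutant. Of the 15, PMA2, PHM6, PRM7, ISA1 and CCP1 were under 2-fold in the unstressed mutant and CYT1 had no value there. The rest were already higher by 2-fold or more without stress, among them SDH2 at 1.67, NDE1 at 1.09 and RIP1 at 1.52.

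**Figure D5:**
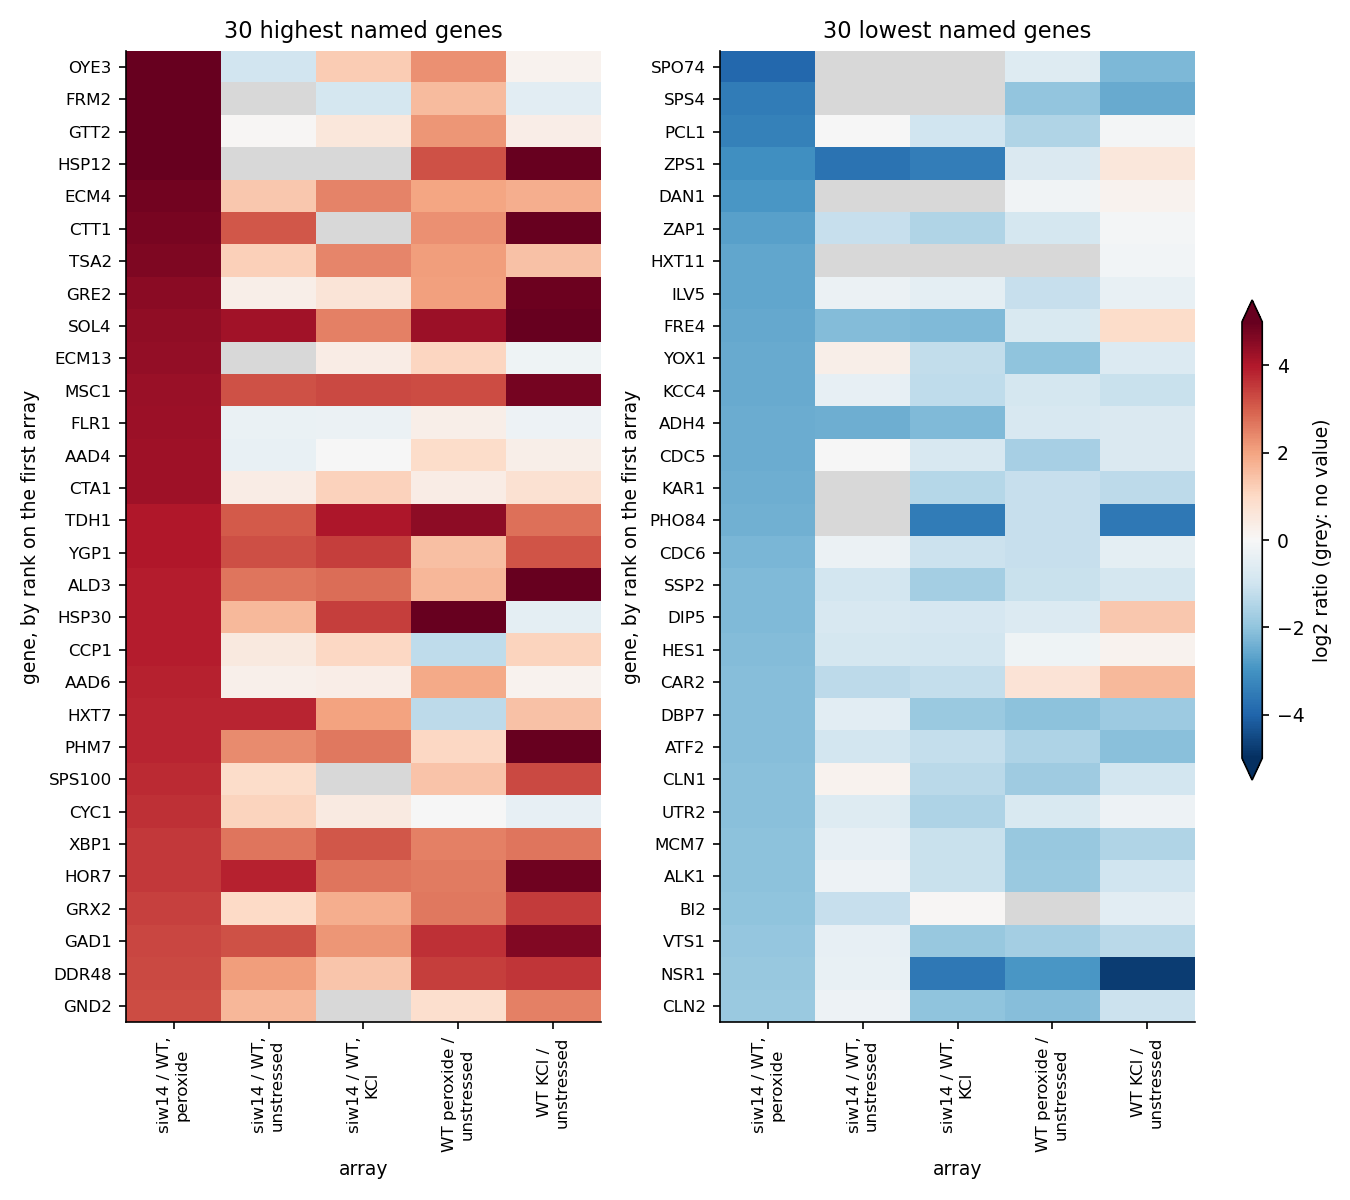
Log2 ratios of the 30 highest and 30 lowest named genes of the array of siw14Δ over wild type in peroxide (rows, by rank) on each of the 5 arrays (columns); red is higher and blue lower in the mutant or stressed cells, grey marks no value, and colours stop at 5 in size. OYE3, GTT2 and FLR1 are high in the first column and near or below 0 in the unstressed mutant, while ZPS1 and ADH4 are low on all 3 mutant arrays.

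No value was given here for 443 genes, 78 of them named. Besides TRX2, TRR1, GPX2, HIS3 and MET17 these included the multi-stress gene DDR2, the glucokinase gene GLK1, the glycolytic gene TDH3 and the Hsp70 gene SSA1. DDR2 lay at 4.79 in the unstressed mutant and 4.84 in the mutant in KCl, against 5.43 in wild type in peroxide. Of the 58 missing named genes that had a value in wild type in peroxide, 16 were higher by 2-fold or more there and 1 lower. The counts of stress genes given above leave these genes out.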

How the data were processed

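The deposited values, 1 per probe and array, were used as log2 ratios of Cy5 over Cy3, the dyes per the labels; no source used here names the base, and natural logarithms could not be told from base 2. The authors' background correction, normalization and reasons for missing values were not given in the sources used here. Yeast probes (6256) were averaged per platform gene symbol, of which 3 had 2 probes; 4075 probes had 1 symbol, 0 had several and 2181 had none. Of the symbols, 129 were updated through RefSeq synonyms and 4 were kept as given. The 53 control features stayed out of all counts.

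With 1 array and no replicate there is no test, and the number of arrays limits the precision; counts at 2-fold are a rule of size. The members and the 73 gene lists were chosen with earlier results of these data known. Genes named are the 30 highest and 30 lowest named genes, SIW14, MSN2 and MSN4, the 4 highest and 4 lowest of every list (all members of lists of up to 12), the 10 largest differences each way from the unstressed mutant, and 3 neighbours on each side of SIW14. Not every gene the rule takes is printed. Genes outside it, the 27 pairs and the subgroups within lists were chosen after their values were seen. The 2-fold counts and a list median were checked on simulated data with 1 probe per gene, so averaging over probes was not checked. Promoter sequences were not used here, so the planned motif counts were not made, and no coordinates are given since the array's build is not named. Alternatives were other folds, centring, scaling, natural logarithms and other gene sets. Python 3.11.15, pandas 2.3.3 and matplotlib 3.10.9 were used.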

Additional observations from a re-analysis of the deposited data

Results flagged for a closer look

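In a few genes the mutant lay at 2-fold or more on one side of the wild type in peroxide and on the other side under another condition, a difference that was not tested. OYE2, the second old yellow enzyme gene, lay at 1.59 in peroxide, against -1.03 in the unstressed mutant and -1.06 in the mutant in KCl. FRE1 lay at 2.90 in peroxide and -1.57 in KCl, and the mitochondrial metal transporter gene MMT1 at 1.16 in peroxide and -1.51 in KCl. PHM6, a phosphate-regulated gene, lay at 1.14 in peroxide and -1.06 in KCl. Outside the yeast genes, the E1A control features had a median of 1.17 on this array, over 7 features. That was above the medians of -0.37 over 10 in wild type in peroxide and 0.15 over 6 in wild type in KCl. The part these features play in other ratios was not tested.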

How the results depend on the processing

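The counts of genes higher (746) and lower (483) by 2-fold or more stayed within 1.5 times when the array was centred on its median, scaled to the common spread of the 5 arrays, limited to genes with a value on all 5 arrays or counted by probe. At 1.5-fold they were 1346 and 1217, at 3-fold 355 and 117, with values read as natural logarithms 1150 and 970, and among named genes 435 and 321. The share of higher among these calls was 60.7%, 62.2% after centring and 64.2% after scaling. SIW14 lay between -1.66 and -1.48, MSN2 between 0.27 and 0.32 and MSN4 between 0.40 and 0.46 as given, centred or scaled. Of 73 list medians, 0 turned sign under centring or scaling, 5 did with the mean in place of the median, 4 over members with values on all 5 arrays and 6 of 67 over members in no other list. The 13 lists with a median of 2-fold or more kept their sign in every alternative run, but 10 of those 60 values were under 2-fold, among them glycogen genes at 0.77 over unshared members and respiratory genes at 0.995 after scaling. The planned motif counts and leaving out a replicate could not be run. No paired analysis was possible because the comparison rests on 1 array.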

Other observations

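Other groups on the array held single genes far from the wild type. Of 47 meiosis and sporulation genes with a value, 7 were higher by 2-fold or more and 7 lower. SPO74 lay at -3.93 and SPS4 at -3.48, the lowest named genes, while the spore wall gene SPS100 lay at 3.72 and the kinase gene SMK1 at 2.13. SPO74 and SPS4 had no value on the other mutant arrays, and 13 further genes of the list had none here. Of 17 vacuolar genes, 7 were higher by 2-fold or more, and these hold both proteases and protease inhibitors. The inhibitor genes TFS1, PAI3 and PBI2 lay at 3.10, 2.32 and 1.35, and the aminopeptidase gene APE1 lay at 2.61. Of 24 autophagy genes, 4 were higher by 2-fold or more, which is near the 12.8% over all genes. They were led by ATG8 at 1.66, which encodes the ubiquitin-like protein of the autophagosome. Of 33 cell surface genes, 12 were higher by 2-fold or more and 3 lower, with YGP1 at 4.0, SPI1 at 2.97 and the wall protein gene CWP2 at 2.32, against DAN1 at -2.90 and TIP1 at -1.31.

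Secretory pathway genes were close to the wild type, with 0 of 34 at 2-fold or more and a range of -0.70 to 0.86. Pheromone genes were mixed, 5 of 22 higher by 2-fold or more and 1 lower, with PRM8 at 1.98 and FIG1 at 1.75. The vitamin B6 genes SNZ3 and SNZ2 lay at 1.98 and 1.94 and the thiamine gene THI4 at 1.56. Among the 1816 unnamed probes 311 were higher by 2-fold or more and 162 lower. The lowest values of the array belonged to the unnamed probes A_06_P6751 and A_06_P3214, at -4.95 and -4.55, which lay at -4.33 and -4.14 in the unstressed mutant, against 0.08 and -0.09 in wild type in peroxide. The highest unnamed probe, A_06_P4481, lay at 5.88 here and 0.31 in the unstressed mutant.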
